A study of Mus musculus with 6 samples.

Results

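RGS proteins (regulators of G protein signalling) were followed through 10 genes, Rgs2, Rgs3, Rgs4, Rgs5, Rgs6, Rgs10, Rgs12, Rgs14, Rgs16 and Rgs19. The members were all probe sets annotated to exactly 1 of these symbols, which gave 27 of the 45037 probe sets compared, with 1 to 4 per gene. Gene expression had been measured on Affymetrix arrays in hearts of 9-month-old mice, with 1 array per heart. The 3 GRK2+/- hearts came from mice of the strain B6.129-Adrbk1tm1Mca/J, repeatedly backcrossed onto C57BL/6J and heterozygous for the targeted allele of Adrbk1 (Grk2, G protein-coupled receptor kinase 2), and the 3 wild-type (WT) hearts came from C57BL/6J littermates. The RNA was from a piece of the upper part of each heart, so every level is that of mixed tissue. The level of Grk2 itself was not analysed here, so no check of the genotype labels by that gene was made.

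An RGS protein binds an active G protein alpha subunit and speeds its hydrolysis of GTP, which ends the signal of the receptor upstream. The small R4 proteins (Rgs2, Rgs3, Rgs4, Rgs5 and Rgs16) act on the Gq and Gi classes, with Rgs2 favouring Gq. Rgs6, of the R7 family, works as a complex with the beta subunit Gnb5 and shortens muscarinic slowing of the heart. Rgs10, Rgs12 and Rgs14 (R12 family) and Rgs19 (RZ family) act mainly on Gi-class subunits. GRK2 phosphorylates active receptors, and it also holds an RGS-homology domain that binds Gq, so receptor kinases and RGS proteins meet on the same signals.

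Of the 10 genes, 4 lie on chromosome 1 (build GRCm38.p6): Rgs2 at 143999338 to 144004149, Rgs16 at 153740353 to 153745468, Rgs5 at 169655501 to 169695813 and Rgs4 at 169741477 to 169747642. Rgs5 and Rgs4 are neighbours, with 45.7 kb between them. The others are on chromosomes 2 (Rgs19, 181688419 to 181694537), 4 (Rgs3, 62559835 to 62703019), 5 (Rgs12, 34948929 to 35039642), 7 (Rgs10, 128373621 to 128419506), 12 (Rgs6, 82616551 to 83162061) and 13 (Rgs14, 55369732 to 55384687). A RefSeq promoter table matched 9 of the 10 genes, all but Rgs14. The 250 bases before the start of 3 of them are shown, read 5′ to 3′ on the strand of the gene: Rgs4 and Rgs5, because these neighbours had the probe sets furthest above wild type, and Rgs2, because it is known as an early-response gene. Capitals mark the motifs found, which were the CRE core (TGACG), the CCAAT box (ATTGG) and the TATA box (TATAAA), each searched on both strands.
Rgs2 chr1:144004150-144004399 (- strand): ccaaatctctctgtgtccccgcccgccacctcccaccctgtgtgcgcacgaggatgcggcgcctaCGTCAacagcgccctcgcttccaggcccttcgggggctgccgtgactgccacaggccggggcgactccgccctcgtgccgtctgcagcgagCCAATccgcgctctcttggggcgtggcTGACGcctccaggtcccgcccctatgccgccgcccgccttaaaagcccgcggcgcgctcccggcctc
Rgs4 chr1:169747643-169747892 (- strand): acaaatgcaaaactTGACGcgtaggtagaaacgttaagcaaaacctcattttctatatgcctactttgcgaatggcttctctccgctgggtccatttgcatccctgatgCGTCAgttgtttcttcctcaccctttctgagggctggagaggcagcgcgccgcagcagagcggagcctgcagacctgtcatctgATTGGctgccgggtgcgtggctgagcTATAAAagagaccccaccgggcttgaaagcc
Rgs5 chr1:169655251-169655500 (+ strand): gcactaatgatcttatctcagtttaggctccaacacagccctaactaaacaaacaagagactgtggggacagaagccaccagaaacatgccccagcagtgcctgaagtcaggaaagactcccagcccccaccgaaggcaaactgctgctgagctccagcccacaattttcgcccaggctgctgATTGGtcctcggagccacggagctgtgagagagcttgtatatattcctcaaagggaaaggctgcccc

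The Rgs2 window held the CRE core 185 and 67 bases before the start, and that of Rgs4 held it 236 and 141 bases before the start; the core was in 17.8% of 32841 promoter windows of that length. The CCAAT box was in all 3 windows, at 94 (Rgs2), 57 (Rgs4) and 67 (Rgs5) bases before the start, and in 33.9% of all windows. These 3 windows were picked by hand: over all 13 promoter windows listed for the members, the CRE core was in 3, the CCAAT box in 4 and the TATA box in 3. The Rgs4 window also held the TATA box, 31 bases before the start, as did 12.4% of all windows. The other motifs searched were not found in these 3 windows. They were the full CRE (TGACGTCA, which overlaps the core; 1.55% of all windows), the AP-1 motif of Fos and Jun (TGANTCA; 6.75%) and the EGR motif (GCGGGGGCG; 2.57%). Over the 13 member windows the AP-1 motif was in 1, that of Rgs12, and the full CRE and the EGR motif were in 0. A match describes letters in the window and is not a bound site.

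Comparing the genotypes addressed whether the loss of 1 copy of the receptor kinase goes with another level of the RGS genes. None of the 27 probe sets passed an adjusted p of 0.05 (limma with Benjamini-Hochberg adjustment over all probe sets; smallest member adjusted p = 0.275). Over all 45037 probe sets 0 passed (0%; smallest adjusted p = 0.103). At an unadjusted p under 0.05 there were 3 member probe sets (11.1%), 1 each of Rgs4 and Rgs5 with higher and 1 of Rgs6 with lower values in GRK2+/- hearts, against 12.8% of all probe sets (5.44% higher, 7.4% lower). The share among the members was near that of the array. The member count was 5 without GRK2+/- heart 1, beside 12.7% of all probe sets. It was also 5 once arrays were centred on their medians, beside 12.4% of all probe sets. All 3 GRK2+/- values lay on one side of all 3 wild-type values for 6 member probe sets (22.2%), against 17.9% of all probe sets. Of these, 4 were above wild type (14.8%, against 6.76%) and 2 below (7.41%, against 11.2%). The 4 came from only 2 genes, Rgs4 and Rgs5, and probe sets of 1 gene are not independent. The count of 6 became 10 without wild-type heart 1 and 3 after quantile normalisation. Smaller groups overlap less readily, and the shares of all probe sets under these settings are not given here.

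The differences were small in size. The median over the 27 probe sets was -0.025 on the log2 scale, beside -0.021 over all probe sets. A difference under 0.1 in size was seen for 16 of the 27 (59.3%), and for 59.2% of all probe sets. The 95% intervals of 26 of the 27 lay within 0.5 of 0, and over the members the bounds ran from -0.49 to 0.55. The smallest two-sided p that an exact permutation test allows for groups of 3 is 0.1.

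**Figure D1:**
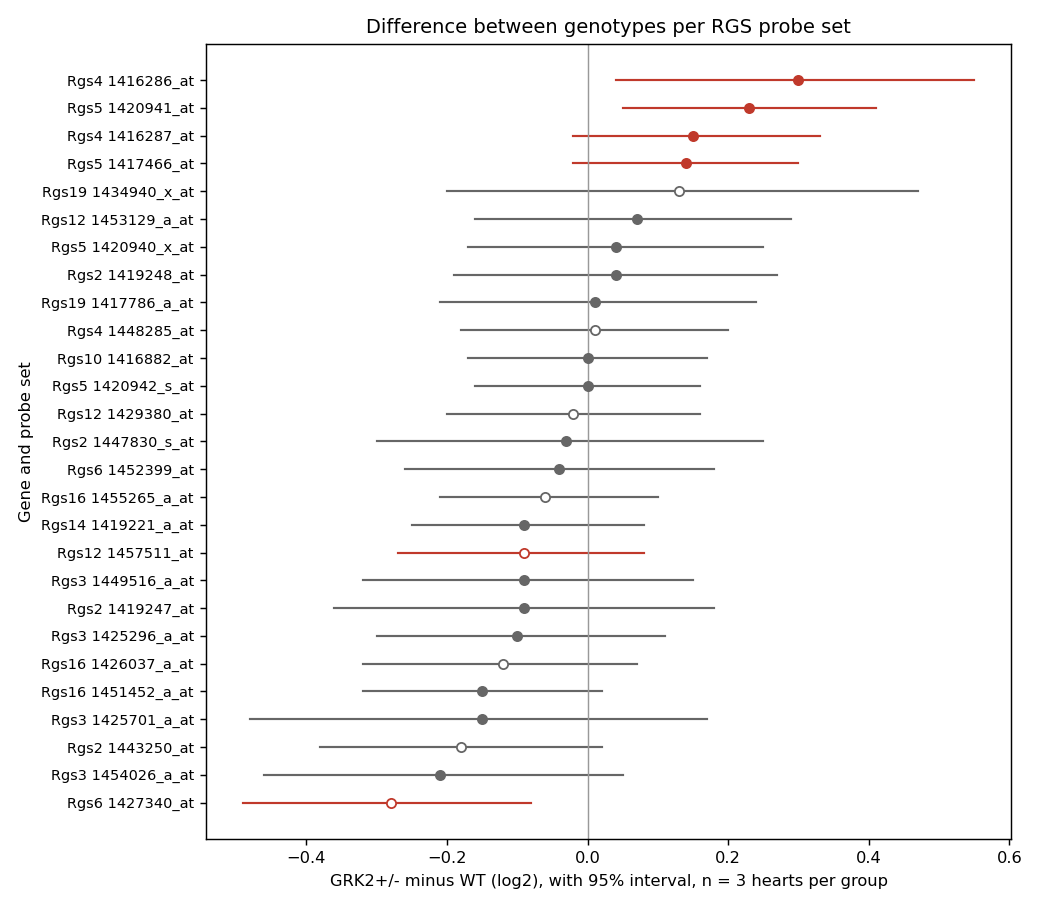
GRK2+/- minus wild-type difference on the log2 scale (x axis) for each of the 27 RGS probe sets (y axis, in order of the difference), with n = 3 hearts per group. Points are limma estimates and lines their 95% intervals, red marks the 6 probe sets whose groups did not overlap, and open points those with a mean below the array's median of 6.28; the intervals of 24 probe sets include 0.

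Rgs4, an R4 protein that limits Gq and Gi signals and is known from the pacemaker and atria, had the largest difference of any member. Its probe set 1416286_at read 8.52, 8.55 and 8.97 in GRK2+/- hearts 1, 2 and 3 and 8.33, 8.39 and 8.43 in wild-type hearts 1, 2 and 3. The lowest GRK2+/- heart stood 0.09 above the highest wild-type heart, and heart 3 stood apart from its group. The difference was 0.30 ± 0.11 (SE, n = 3 per group; 1.23-fold; limma adjusted p = 0.324), and it was 0.15 without GRK2+/- heart 3. The second probe set, 1416287_at, read 7.87, 7.80 and 8.03 against 7.74, 7.79 and 7.72, a difference of 0.15 ± 0.08 (0.087 without GRK2+/- heart 3). Its groups did not overlap either, with a gap of 0.02, and heart 3 was again the highest. The third, 1448285_at, overlapped between groups (5.42 to 5.63 against 5.46 to 5.66) and differed by 0.01 ± 0.09; its mean lay below the median of all probe sets (6.28), where values carry little signal over background.

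Rgs5, another R4 protein and a known marker of pericytes and vascular smooth muscle, had 4 probe sets that fell into 2 kinds. The probe set 1420941_at read 12.02, 12.05 and 12.14 in GRK2+/- hearts and 11.78, 11.97 and 11.75 in wild-type hearts, a difference of 0.23 ± 0.08 (1.18-fold; limma adjusted p = 0.285). The probe set 1417466_at read 13.56, 13.61 and 13.64 against 13.45, 13.54 and 13.39, a difference of 0.14 ± 0.07. In both, every GRK2+/- heart was above every wild-type heart, by 0.05 and 0.02 at the closest. The other two overlapped between groups. The probe set 1420942_s_at read 11.74 to 11.77 against 11.67 to 11.85, with group means of 11.76 in both. The probe set 1420940_x_at differed by 0.04 ± 0.09. In Affymetrix naming the endings _s_at and _x_at mark probe sets that can read transcripts of more than 1 gene or cross-hybridise. The plain _at ending marks a set designed for 1 transcript. Which transcripts the 4 Rgs5 probe sets read, and the part of this in their values, was not tested. Wild-type heart 2 was the highest wild-type heart on all 4 probe sets.

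Markers of smooth muscle and pericytes were read beside Rgs5. Of 14 measured markers, 8 were above 0 and 6 below, with a median difference of 0.131 (0.055 without GRK2+/- heart 3), beside -0.0189 over all 18193 genes (1 probe set per gene, the one of highest mean level). An unadjusted p under 0.05 was reached by 5 on the higher and 0 on the lower side (14% of all genes reached it, 6.3% higher and 7.7% lower), and 0 passed an adjusted p of 0.05. Averaged over these markers and taken relative to the wild-type mean, the level was 0.0419, 0.124 and 0.163 in GRK2+/- hearts 1 to 3. In wild-type hearts it ran from -0.0421 to 0.0358. Without Myh11 the level was 0.0038, 0.0993 and 0.144, against -0.0493 to 0.0289. GRK2+/- heart 1 then lay inside the wild-type range. The smooth muscle myosin Myh11 read 8.30, 8.21 and 8.17 against 7.59, 7.89 and 7.82 (0.47 ± 0.09; limma adjusted p = 0.107; 0.27 with the mean of its probe sets), and the mural cell receptor Notch3 differed by 0.36 ± 0.10. Among genes of pericytes, chosen after their values were seen, Pdgfrb differed by 0.31 ± 0.11, Kcnj8 by 0.11 ± 0.08, Higd1b by -0.05 ± 0.10 (0.061 without GRK2+/- heart 1) and Cspg4 by -0.17 ± 0.09 (0.043 with the mean of its probe sets). The 5 markers at an unadjusted limma p under 0.05 were Myh11, Notch3, Pdgfrb, Abcc9 (0.23 ± 0.08) and Mcam (0.24 ± 0.11). The part of these markers in the Rgs5 values was not tested. In such bulk samples more cells of a type and more RNA per cell cannot be told apart.

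Rgs6, the R7 protein of the muscarinic pathway, had 2 probe sets. The probe set 1427340_at read 5.82, 5.48 and 5.69 in GRK2+/- hearts and 5.88, 6.01 and 5.95 in wild-type hearts. The groups did not overlap, with a gap of 0.06, and GRK2+/- heart 2 was the lowest. The difference was -0.28 ± 0.09 (1.22-fold lower; limma adjusted p = 0.275), and -0.19 without GRK2+/- heart 2. Both group means lay below the median of all probe sets. The brighter probe set, 1452399_at, read 7.33, 7.12 and 7.46 against 7.31, 7.47 and 7.26, and the groups overlapped throughout (-0.04 ± 0.10; 95% interval -0.26 to 0.18).

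**Figure D2:**
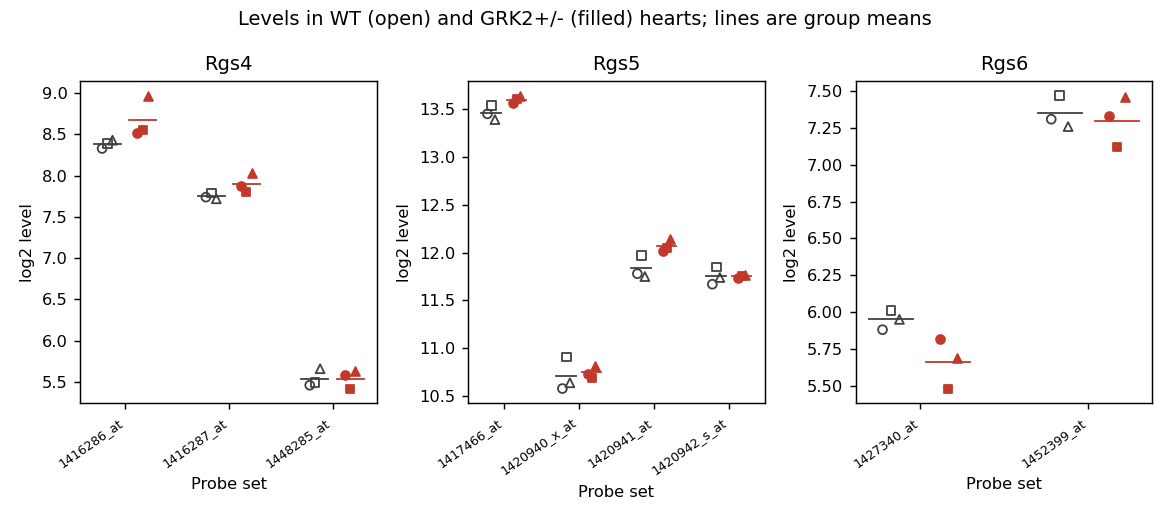
Deposited log2 levels (y axes, separate scale per gene) of each probe set of Rgs4, Rgs5 and Rgs6 (x axes), with open symbols for the 3 wild-type hearts, filled red symbols for the 3 GRK2+/- hearts (circle, square and triangle for hearts 1, 2 and 3) and lines for group means. The groups are apart for 2 of 3 Rgs4, 2 of 4 Rgs5 and 1 of 2 Rgs6 probe sets and overlap in the rest.

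The partners of Rgs6 were read beside it. Rgs7bp, which anchors R7 complexes at the membrane, read 8.65, 8.76 and 8.72 in GRK2+/- hearts against 8.49, 8.32 and 8.50 in wild-type hearts. Every GRK2+/- heart was above every wild-type heart, and all 3 of its probe sets pointed the same way (0.28 ± 0.08; limma adjusted p = 0.2). Gnb5, the obligate beta subunit, differed by -0.09 ± 0.08 with overlapping groups. The potassium channel subunits Kcnj3 and Kcnj5, which form the channel that Rgs6 complexes help to close, differed by 0.32 ± 0.09 and 0.27 ± 0.09, with no overlap between groups. For these, however, only 2 of 4 and 1 of 2 probe sets pointed that way, and the means over a gene's probe sets were 0.15 and 0.11.

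Because Rgs4 and Rgs6 are known from atrial and pacemaker tissue, markers of those cells were read in the same arrays. Of 11 measured markers 6 were above 0 and 5 below, with a median difference of 0.00775. Of these markers, 1 on the higher and 2 on the lower side reached an unadjusted p under 0.05, against 6.3% and 7.7% of all genes. Their mean relative to wild type was -0.145, -0.0353 and -0.0776 in GRK2+/- hearts and ran from -0.0154 to 0.0180 in wild-type hearts. Nppa, which is also a stress gene of ventricle, read 9.68, 10.67 and 9.56 against 10.93, 11.62 and 10.95 (-1.20 ± 0.27; limma adjusted p = 0.15), and Bmp10 differed by -0.19 ± 0.08. Without Nppa, the mean of the other 10 markers was -0.0106, 0.0108 and 0.0755 in GRK2+/- hearts, against -0.0253 to 0.0209 in wild-type hearts, so the sign of the list's mean rested on that gene. Among defining atrial genes, chosen after their values were seen, Myl7 read 5.49 to 5.67 over the 6 hearts and Sln 5.54 to 5.81. Both lay below the median of all probe sets (6.28) in every heart. Myl4 (7.03 to 7.27) lay above it in every heart, but its mean was below the median over genes (7.24, 1 probe set per gene). Their part in the Rgs4 and Rgs6 values was not tested.

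Rgs2, the R4 protein most selective for Gq, did not differ beyond the spread between hearts on any of its 4 probe sets. The probe set 1419247_at read 10.56, 10.09 and 10.54 in GRK2+/- hearts and 10.49, 10.41 and 10.57 in wild-type hearts (-0.09 ± 0.12; 95% interval -0.36 to 0.18). The probe set 1419248_at read 10.46, 10.08 and 10.42 against 10.28, 10.21 and 10.35 (0.04 ± 0.10). GRK2+/- heart 2 was the lowest of the 6 hearts on all 4 Rgs2 probe sets, and the other GRK2+/- hearts lay within or just above the wild-type range on the 3 brighter ones. The probe set 1447830_s_at differed by -0.03 ± 0.12. The dimmest, 1443250_at, differed by -0.18 ± 0.09.

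Rgs2 is known as a gene induced early after a stimulus, and immediate early genes were read beside it. Of 22 such genes 17 were above 0 and 5 below, with a median difference of 0.515. An unadjusted p under 0.05 was reached by 12 on the higher and 1 on the lower side, against 6.3% and 7.7% of all genes. Of the 22, 0 passed an adjusted p of 0.05. Averaged over the list, the level above the wild-type mean was 0.149, 0.569 and 1.18 in GRK2+/- hearts 1, 2 and 3, while the wild-type hearts ran from -0.0553 to 0.0742. The orphan receptor Nr4a1 differed by 1.46 ± 0.25 and Klf4 by 0.52 ± 0.11 (limma adjusted p = 0.0943 and 0.136). The median was 0.215 without GRK2+/- heart 3. In the same GRK2+/- hearts 1, 2 and 3, Rgs2 1419247_at read 10.56, 10.09 and 10.54. The part of the early genes in the values of Rgs2 or of the other RGS genes was not tested.

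Rgs16, an R4 protein of Gi and Gq signals, had 3 probe sets, all slightly below wild type. Its brightest, 1451452_a_at, read 6.23, 6.29 and 6.40 in GRK2+/- hearts and 6.37, 6.53 and 6.47 in wild-type hearts. GRK2+/- heart 3 lay inside the wild-type range and the other two below it (-0.15 ± 0.08; 95% interval -0.32 to 0.02). The probe sets 1426037_a_at and 1455265_a_at differed by -0.12 ± 0.09 and -0.06 ± 0.07, with means below the median of all probe sets.

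Rgs3, an R4 protein with several transcript forms, was also below wild type on all 4 probe sets, with overlap in each. The probe set 1454026_a_at had the largest difference, reading 6.90, 6.53 and 6.83 against 6.76, 7.03 and 7.09 (-0.21 ± 0.11; 95% interval -0.46 to 0.05; -0.099 without GRK2+/- heart 2). The probe set 1425701_a_at read 6.88, 7.54 and 7.43 against 7.48, 7.40 and 7.42 (-0.15 ± 0.14). GRK2+/- heart 1 lay alone there, and without it the difference was 0.049. The probe sets 1425296_a_at and 1449516_a_at differed by -0.10 ± 0.09 and -0.09 ± 0.10.

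Among the R12 and RZ genes no probe set reached an unadjusted p under 0.05. Rgs10, known from leukocytes and from heart muscle, read 8.16, 8.32 and 8.22 in GRK2+/- hearts against 8.25, 8.29 and 8.15, with group means of 8.23 in both (95% interval of the difference -0.17 to 0.17). Rgs14, a scaffold that also binds Ras-family proteins, read 7.12, 7.10 and 7.26 against 7.28, 7.28 and 7.19 (-0.09 ± 0.07). GRK2+/- hearts 1 and 2 were below the wild-type hearts and heart 3 was among them. Rgs19, the RZ protein found with Gi3, read 7.38, 7.74 and 7.78 against 7.60, 7.63 and 7.61 on 1417786_a_at (0.01 ± 0.10). The wild-type hearts spanned 0.03 there and the GRK2+/- hearts 0.40, on both sides of them. The dim 1434940_x_at differed by 0.13 ± 0.15.

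Rgs12, the longest protein of its family and a scaffold as well, had 3 probe sets that did not agree in sign. The brightest, 1453129_a_at, read 7.38, 7.65 and 7.49 against 7.46, 7.59 and 7.27 (0.07 ± 0.10). The dim 1429380_at and 1457511_at differed by -0.02 ± 0.08 and -0.09 ± 0.08. For the last, the groups did not overlap (4.93 to 4.96 against 4.96 to 5.18), but the gap was 0.00 to 2 decimals.

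Leukocyte markers were read beside Rgs10, Rgs14 and Rgs19, which white blood cells also express. Of 14 measured markers 7 were above 0 and 7 below (median -0.0275). An unadjusted p under 0.05 was reached by 3 on the higher and 1 on the lower side, against 6.3% and 7.7% of all genes. The average of the list, relative to the wild-type mean, was 0.0489, 0.177 and 0.203 in GRK2+/- hearts and ran from -0.0957 to 0.0868 in wild-type hearts. Without S100a8 it was -0.0363, 0.0221 and 0.0213, against -0.0795 to 0.0792, so the difference in the average rested on that 1 gene. The neutrophil gene S100a8 differed by 1.97 ± 0.29 (limma adjusted p = 0.08) and the pan-leukocyte gene Ptprc by 0.42 ± 0.12, the latter on 1 of 2 probe sets (0.20 with their mean). The groups did not overlap for 3 markers above and 3 below wild type, against 19.1% of all genes. Those below, named after their values were seen, were Fcgr3 (-0.25 ± 0.08), C1qb (-0.14 ± 0.08) and C1qa (-0.11 ± 0.07). With the mean of its probe sets C1qb was -0.01. The part of the leukocyte markers in the values of the 3 RGS genes was not tested.

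**Figure D3:**
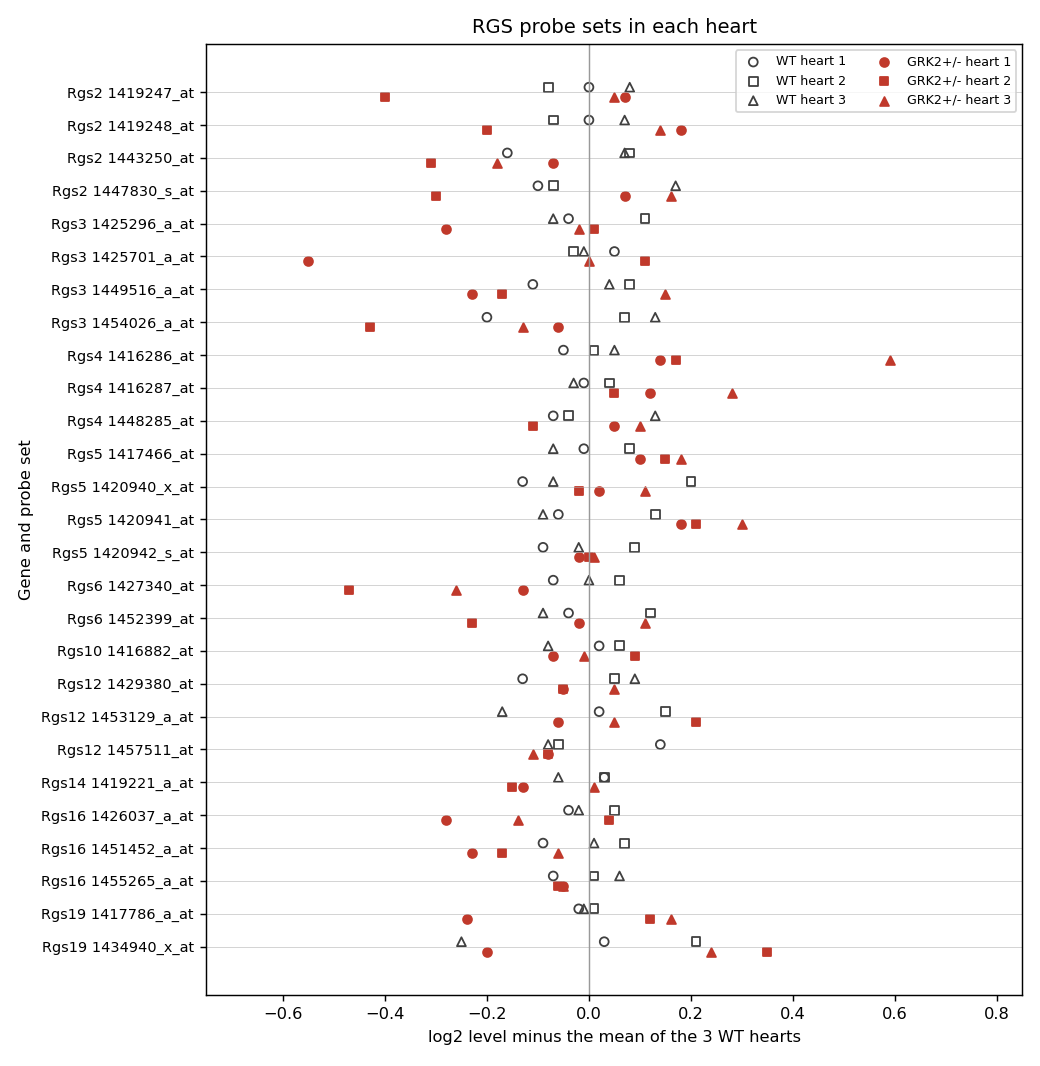
Deposited log2 level of each RGS probe set in each heart minus the mean of the 3 wild-type hearts (x axis), by gene and probe set (y axis), with open symbols for wild-type and filled red symbols for GRK2+/- hearts (circle, square and triangle for hearts 1, 2 and 3). GRK2+/- heart 3 is the highest on 2 of the 3 Rgs4 probe sets, heart 2 lies lowest on Rgs2 and Rgs6, and heart 1 lies lowest on 3 of the 4 Rgs3 probe sets, while most other symbols overlap around 0.

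The members thus varied between GRK2+/- hearts gene by gene. The SD among GRK2+/- hearts exceeded that among wild-type hearts for 18 of 27 member probe sets (66.7%), against 48.7% of all probe sets; probe sets of 1 gene are not independent. Over the members, GRK2+/- hearts 1, 2 and 3 were the lowest of the 6 hearts for 6, 9 and 1 probe sets, and wild-type hearts 1, 2 and 3 for 5, 0 and 6. GRK2+/- hearts 1, 2 and 3 were the highest for 1, 4 and 6, and wild-type hearts 1, 2 and 3 for 2, 8 and 6. Group SDs of the members ran from 0.01 to 0.35.

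By gene, 1 of the 10 members (Rgs4) reached an unadjusted p under 0.05, and the groups did not overlap for 2 (Rgs4 and Rgs5), against 14% and 19.1% of all genes. The 5 R4 genes had a median difference of -0.0895, with 2 above 0 (Rgs4 and Rgs5) and 3 below (Rgs2, Rgs3 and Rgs16). The median was 0.065 without GRK2+/- heart 2. The 5 genes of the other families had a median of -0.000126, with 2 above and 3 below. The other RGS genes and partners, 12 measured, had a median of 0.0289 (-0.016 without wild-type heart 1), with 7 above and 5 below. Of these, 2 reached an unadjusted p under 0.05, both higher: Rgs7bp and the dim Rgs7, a neuronal R7 protein (0.22 ± 0.09). Of 14 proteins with an RGS-homology or related domain 10 were above 0 and 4 below (median 0.031, and 0.005 to 0.093 without GRK2+/- hearts 2 and 1), and 1 reached that p. This was Arhgef12, which takes its signal from G12 and G13 (0.31 ± 0.10; 3 of 4 probe sets in that direction, and 0.12 with their mean); the anchor protein Akap10 differed by 0.18 ± 0.09 (0.039 with the mean of its probe sets).

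Substrates of RGS proteins were read next. Of 13 alpha subunits, 7 were above and 6 below 0 (median 0.0646, or -0.007 without GRK2+/- heart 1), and 0 passed an adjusted p of 0.05. An unadjusted p under 0.05 was reached by 3 on the higher and 1 on the lower side, against 6.3% and 7.7% of all genes. Gnai1, a Gi subunit and a substrate of most members, read 7.47, 7.46 and 7.70 in GRK2+/- hearts against 7.30, 7.10 and 7.14 (0.36 ± 0.09; limma adjusted p = 0.173; 3 of 3 probe sets in that direction, and 0.23 with their mean). The groups did not overlap. Gna13 differed by 0.24 ± 0.08 and Gnaq, the Gq subunit, by 0.19 ± 0.07, on 5 and 4 of 7 probe sets each (0.12 and 0.052 with the means of their probe sets). Gnai2, the main Gi subunit of heart, differed by 0.07 ± 0.07 and was -0.02 with the mean of its probe sets. Of 15 beta and gamma subunits, 5 were above 0 and 10 below (median -0.0636, or -0.018 without GRK2+/- heart 3), and 2 reached that p on the lower side, the dim Gng8 (-0.23 ± 0.07) and Gng7 (-0.18 ± 0.08).

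Of 11 measured receptors of the pathway 5 were above 0 and 6 below (median -5e-05). An unadjusted p under 0.05 was reached by 1 of them, against 14% of all genes. The sphingosine 1-phosphate receptor S1pr3, which couples to Gi, Gq and G13, was the 1 that reached an unadjusted p under 0.05 (0.60 ± 0.09; limma adjusted p = 0.0912; 0.36 with the mean of its 3 probe sets). The angiotensin receptor Agtr1a differed by 0.16 ± 0.07, with no overlap between groups. Of 13 downstream effectors 7 were above 0 and 6 below (median 0.0156), and 2 reached that p, Kcnj3 and Kcnj5 (above).

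**Figure D4:**
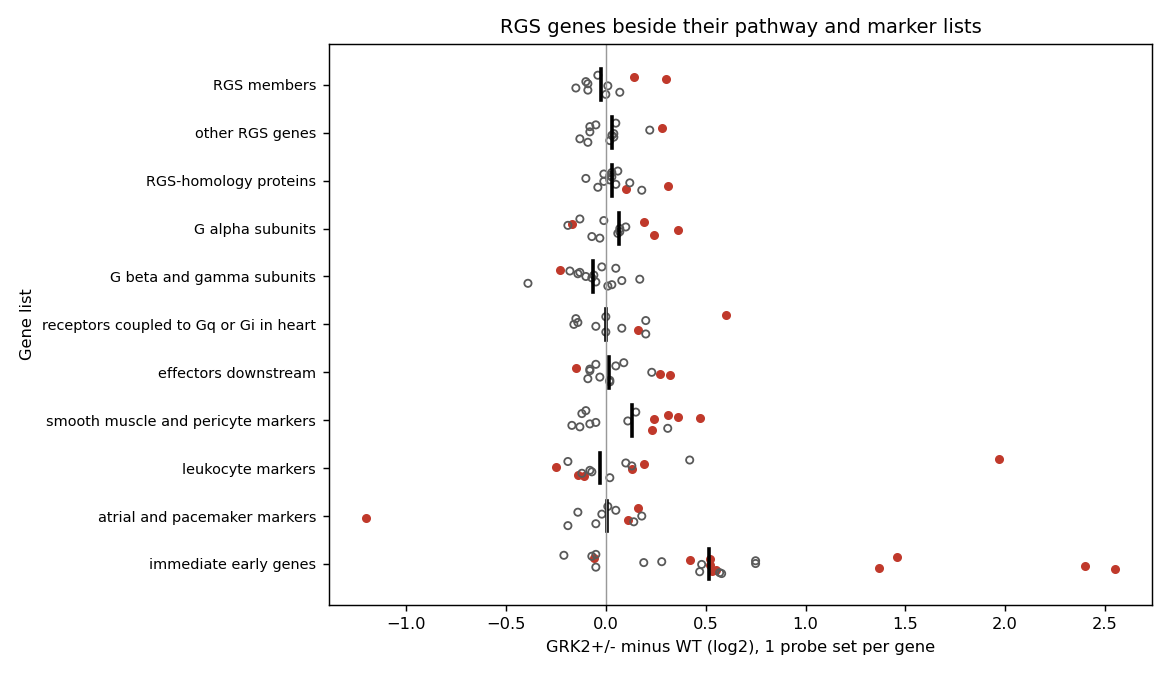
GRK2+/- minus wild-type difference on the log2 scale (x axis) of each measured gene in the RGS set and in 10 lists of pathway genes and cell markers (y axis), 1 probe set per gene; filled red points are genes whose groups did not overlap and black bars list medians. The RGS genes lie between -0.15 and 0.30, near the pathway lists and well inside the range of the immediate early genes (median 0.515).

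Other cell markers gave medians of -0.00424 for 10 ventricular cardiomyocyte, 0.089 for 9 endothelial, 0.129 for 8 fibroblast and -0.0621 for 9 neuronal genes. All 10 cardiomyocyte markers lay above the median of the gene table (7.24), a check of the tissue label. As a gauge of RNA quality, the beta-actin control probe sets at the 3′ end exceeded those at the 5′ end by 0.90 to 1.06 in GRK2+/- and 0.73 to 0.80 in wild-type hearts. For Gapdh and for pyruvate carboxylase the groups differed by 0.02 in this measure, and for the transferrin receptor by -0.10. Its part in these differences was not tested.

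By likeness over the 6 arrays, the genes nearest to Rgs4 1416286_at were Sox4, Hic1 and Egln1 (Pearson r = 0.9976, 0.9972 and 0.9884). Those nearest to Rgs5 1420941_at were Smad3, Irs1 and Zmynd8 (0.9958, 0.9947 and 0.9909), and to Rgs5 1417466_at Gja1, Nfx1 and Mllt10 (0.9939, 0.9914 and 0.9856). These are the highest of 19105 candidate probe sets over only 6 arrays that share both groups, and describe the pattern alone.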

How the data were processed

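Expression was measured with 1 Affymetrix array per heart (6 arrays). The deposited values are log2 expression summaries per probe set; per the submitters' processing notes, the authors used RMA and limma, without versions; joint normalisation of the arrays is not stated. RMA compresses low values, so dim probe sets understate differences. Array medians ran from 6.26 to 6.31 and values from 3.44 to 15.1; the number of arrays limits the precision. The 64 control probe sets were left out. Of 45037 probe sets, 34945 had 1 gene symbol, updated through the Entrez identifier with a RefSeq table (GRCm38.p6).

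GRK2+/- minus WT was fitted with limma 3.58.1 (R 4.3.3; lmFit, eBayes, two-sided) on all 45037 probe sets with Benjamini-Hochberg adjustment over all, and on 18193 genes (probe set with the highest mean) for the lists. The steps were tested on simulated data. The text names every member probe set, the 2 smallest unadjusted p of each pathway or marker list described, and partners of members (marker lists given by their median alone name none); likeness took the 3 nearest genes. The members and lists were chosen with earlier results of these data known. Replicate numbers were not said to pair hearts, and the main fit used no pairing. Deviations of same-numbered hearts correlated at -0.139, -0.0137 and -0.014, and those of differently numbered hearts at -0.119 to 0.137. With 3 hearts per group these values cannot exclude a pairing. Alternatives covered scaling, variance prior, array weights, dim probe sets, the replicate block, each heart left out, the choice of probe set, and marker lists without their gene of smallest p (chosen after the data were seen).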

Additional observations from a re-analysis of the deposited data

How the results depend on the processing

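No member probe set passed an adjusted p of 0.05 under any of the 13 alternatives run on probe sets (smallest member adjusted p = 0.187, under a variance prior tied to mean level). Over all probe sets that prior gave 22 calls, and leaving out GRK2+/- heart 1, 2 or 3 gave 41, 9 and 6, in place of 0. Member probe sets at an unadjusted p under 0.05 numbered 5 in place of 3 once arrays were centred, beside 12.4% of all probe sets. They numbered 2 to 5 without single hearts (5 without GRK2+/- heart 1), beside 8.38% to 15.2% of all probe sets. Member probe sets without overlap between groups numbered 3 in place of 6 after quantile normalisation and 7 to 10 without single hearts (10 without wild-type heart 1). Smaller groups overlap less readily, and the same shares over all probe sets are not given here. All probe sets at an unadjusted p under 0.05 numbered 3547 in place of 5780 without those below the median level, and 3772 to 6862 without single hearts (lowest without wild-type heart 3). Centring moved the median of all probe sets from -0.021 to 0.00791. With the replicate number as a block, member probe sets at an unadjusted p under 0.05 again numbered 3 and all probe sets 5261, so the block moved no count by over 1.5 times. Some differences changed sign. After centring, Rgs2 1447830_s_at was 0.0036, Rgs5 1420942_s_at 0.028, Rgs10 0.029 and Rgs12 1429380_at 0.0099 (0.0096 after quantile normalisation), and Rgs10 was 0.00041 with array weights. Averaging a gene's probe sets, Rgs12 was -0.015 and Gnai2 -0.02, and Gnai2 was -0.11 with its most variable probe set. Leaving out single hearts, the sign changed for 12 member probe sets, with these ranges of the difference: Rgs2 1419247_at -0.17 to 0.065, 1419248_at -0.026 to 0.16 and 1447830_s_at -0.12 to 0.11; Rgs3 1425701_a_at -0.28 to 0.049; Rgs4 1448285_at -0.035 to 0.069; Rgs5 1420940_x_at -0.031 to 0.14 and 1420942_s_at -0.043 to 0.046; Rgs6 1452399_at -0.12 to 0.048; Rgs10 -0.044 to 0.037; Rgs12 1429380_at -0.085 to 0.025 and 1453129_a_at -0.018 to 0.14; and Rgs19 1417786_a_at -0.059 to 0.14. The genes named from other lists, but for Abcc9, Mcam, Fcgr3, C1qb and C1qa, were recomputed after centring and without single hearts. These alternatives were chosen after the data were seen. Sign changes were seen only for Higd1b (0.061 without GRK2+/- heart 1) and Sln (-0.0013 to 0.13 over single hearts left out). S100a8 and Klf4 without GRK2+/- heart 1 passed a limma adjusted p of 0.05 (0.00176 and 0.0373). So did Nr4a1 without GRK2+/- heart 3 (0.00215) and S100a8 among the most variable probe sets (0.0395). Averaged over its probe sets, Cspg4 was 0.043, Sln -0.0086 and Myl4 -0.014, and with the most variable one Cspg4 was 0.25 and Myl4 -0.17, also chosen after the data were seen. Of the 17 list medians, 10 changed sign when single hearts were left out, those of the RGS genes (-0.091 to 0.021) and the atrial (-0.017 to 0.075) and leukocyte lists (-0.056 to 0.011) among them. The sign of these values is limited by 3 hearts per group and, for the dim probe sets, by signal near background.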
